A study of Drosophila melanogaster with 6 samples.

Results

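The vacuolar proton pump (V-ATPase) genes of Drosophila melanogaster were taken as every gene whose symbol in the deposited tables begins with Vha, which gave 33 of the 14210 genes listed. By their known roles, 13 encode copies of the subunits of the peripheral V1 sector, 18 encode copies of the subunits of the membrane V0 sector and 2 encode accessory proteins. The choice used names only and no measured value. Polyadenylated RNA had been sequenced from S2 cells, an established line derived from fly embryos and similar to blood cells. Of the 6 libraries, 3 came from cells labelled wild-type and 3 from S2 cells labelled CG1091 knockout, depleted of CG1091 by CRISPR/Cas9. CG1091 encodes Tailor, a terminal uridylyltransferase, which tails RNA with uridines. The labels do not state whether the knockout cells were a single clone or a pool, nor whether each wild-type library had its own culture, so p-values measure only how far these libraries vary, which may be technical variation.

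The V-ATPase is a rotary motor. Its V1 sector hydrolyses ATP in the cytosol, and the rotation drives protons across a membrane through the V0 sector. The pump acidifies lysosomes, endosomes and other compartments, and on the lysosome it takes part in signalling to the growth regulator TORC1 through the Ragulator complex and the Rag GTPases. In the fly it also energises the plasma membrane of epithelia such as the Malpighian tubule. Several of its subunits have additional gene copies, many of them known for expression in the testis or in other particular tissues.

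Levels are in FPKM, which is fragment counts corrected for transcript length and sequencing depth. The fragments behind each value were worked out from its confidence bounds, and their totals were between 18411809 and 22957816 in a library. CG1091 itself was at 50.7, 51.2 and 47.7 FPKM in wild type and at 22.3, 26.1 and 26.1 FPKM in the knockout. It fell by 0.98 on the log2 scale (limma adjusted p = 2.5e-07), with no overlap between the groups. Of 8 hemocyte markers, 6 were detected at a mean of at least 1 FPKM, and 3 of these (srp, He and eater) were higher and 1 (Pxn) was lower in the knockout. He stood at a mean of 0.584 FPKM in wild type and 1.55 FPKM in the knockout. It reached the cut only through the knockout libraries, so its call carries little weight. The summed hemocyte marker level was 518.7 to 786.3 FPKM across wild-type libraries and 602.2 to 677.0 FPKM across knockout libraries. Most of this sum came from Cg25C and vkg, at 250.5 to 404.8 FPKM and 208.7 to 310.4 FPKM across wild-type libraries. Hml, a defining marker of plasmatocytes, stood at a mean of 0.398 FPKM in wild type and 1.52 FPKM in the knockout, and nimC1 was near 0. Of the neuronal markers, elav was detected (8.23 and 10.5 FPKM, log2 change 0.32), and n-syb and Syt1 stayed under 1 FPKM in every library. The neuronal sum, mostly elav, ranged from 8.06 to 9.08 FPKM in wild type and from 11.2 to 11.7 FPKM in the knockout. Summed markers of muscle, germ line, fat body, gut and tubule, and follicle cells did not exceed 0.771 FPKM in any library. The part of any of these differences in the pump genes' values was not tested.

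At least 1 gene for each subunit that these symbols cover was expressed in every library, and the pump genes that changed were slightly higher in the knockout cells. Of the 33 genes, 18 averaged at least 1 FPKM across the 6 libraries and were tested, 9 of V1, 7 of V0 and both accessory genes. Among these 18, 8 were higher in the knockout (44.4%), 0 were lower and 10 did not pass an adjusted p of 0.05 in limma. Over all 7259 genes tested, 30.1% were called higher, 32.1% lower and 62.1% in either direction. At an unadjusted p of 0.05, 9 of the 18 were higher and 1 was lower in limma. The share of all genes at that cut was not worked out, so these 2 counts have no background. At an adjusted p of 0.05, limma-voom on the recovered fragments called 9 higher and 0 lower. Over all 7259 genes, limma-voom called 4500, of which 2320 were higher. The authors' deposited table, a DESeq comparison, lists 27 of the 33 genes, near-silent copies included, and called 9 of these 27 higher (33.3%) and 0 lower. Of its 11643 genes it called 17.7% higher, 18.3% lower and 36.0% in either direction. The groups did not overlap in 9 of the 18 genes, in each of them with the knockout higher. Over all genes tested, the groups did not overlap in 67.3%, in 32.9% with the knockout higher and in 34.5% with it lower.

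The changes were small. On the log2(FPKM + 1) scale, on which every log2 change here is given as knockout over wild type, all 18 were under 1.5-fold, Vha68-1 only because of the added 1. The median change was 0.11 over the 18 genes and -0.01 over all genes tested. Of the 18 changes, 14 lay between the lower and the upper quartile of all genes (-0.23 and 0.21), 4 lay above and 0 below. The 4 above were the V1 genes Vha68-1, Vha26, Vha68-2 and VhaSFD. In bulk RNA, fewer cells of a type and less RNA per cell cannot be told apart.

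**Figure D1:**
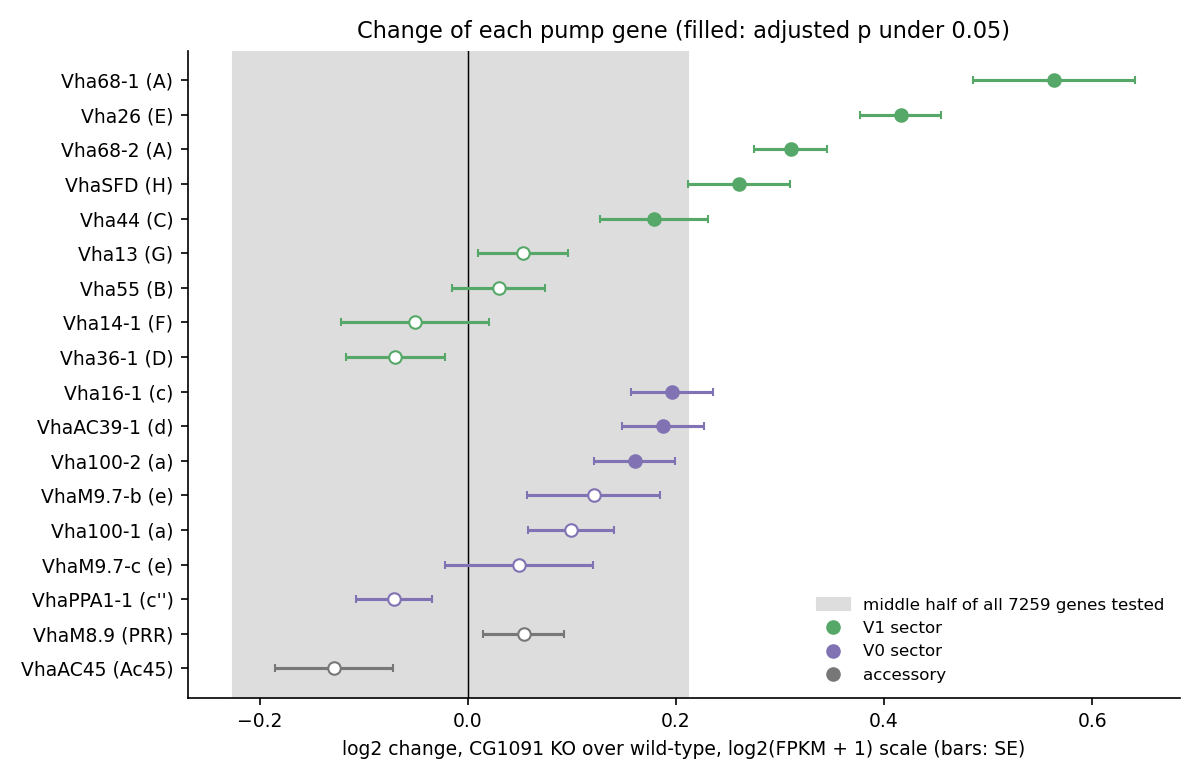
Log2 change of each tested pump gene, knockout over wild type on the log2(FPKM + 1) scale, with its standard error as a bar, grouped by sector (n = 3 libraries per group). Filled points passed a limma adjusted p of 0.05, and the grey band spans the quartiles of all 7259 genes tested. The 8 filled points are all to the right of 0, and 4 V1 genes lie beyond the band.

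In V1, the catalytic A subunit, which binds and hydrolyses ATP, rose in both of its expressed copies. Vha68-2, its ubiquitous copy (FBgn0263598, chromosome 2L, 12974322 to 12978615 as positions run in the files), had 117.1, 115.1 and 116.2 FPKM in wild type and 142.3, 146.7 and 143.7 FPKM in the knockout. The wild-type libraries differed by about 2 FPKM, and every knockout library stood well above them. The mean rose 1.24-fold, from 116.1 ± 0.993 to 144.2 ± 2.25 FPKM (mean ± SD of 3 libraries here and below), with log2 change 0.31 (SE 0.035, limma adjusted p = 2.12e-05). Vha68-1, a minor copy (FBgn0020368, 2L, 13000765 to 13004142), stood at 3.09, 3.06 and 3.18 FPKM in wild type and at 4.80, 5.15 and 5.28 FPKM in the knockout. It was low in every library and did not overlap between the groups. Its mean rose 1.63-fold in FPKM, from 3.11 ± 0.0668 to 5.08 ± 0.249 (log2 change 0.56, SE 0.078, limma adjusted p = 8.86e-05). Because the gene is low, its log2 change moved with the added constant, to 0.69 with 0.1 and 0.31 with 5, and limma-voom on the recovered fragments gave 0.71. Between 179 and 325 fragments in a library underlie these values, against 6233 to 8404 for Vha68-2. The sources used here do not give how reads matching both copies were assigned, and the level of the low copy beside the abundant one is uncertain.

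The B subunit, which binds nucleotide without being the catalytic partner, did not pass the test. Vha55, its only gene (FBgn0005671, 3R, 8449484 to 8453551), stood at 209.9, 217.8 and 223.5 FPKM in wild type and at 213.6, 234.5 and 217.1 FPKM in the knockout. The groups overlapped, and only knockout replicate 2 stood above all wild-type libraries. The log2 change was 0.03 (SE 0.044, limma adjusted p = 0.584), and -0.01 without that library.

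The peripheral stalk, which holds the catalytic head still while the rotor turns, is built of subunits E and G, with C linking it to the membrane sector. Vha26, the E subunit (FBgn0015324, 3R, 1417453 to 1420429), stood at 219.0, 216.7 and 233.5 FPKM in wild type and at 301.2, 296.9 and 295.0 FPKM in the knockout. No knockout library came near the highest wild-type library. The mean rose 1.33-fold, from 223.0 ± 9.10 to 297.7 ± 3.18 FPKM (log2 change 0.42, SE 0.039, limma adjusted p = 5.07e-06), on 10489 to 15838 recovered fragments per library. Vha26 had the smallest adjusted p of the 18 genes. Its partner Vha13, the G subunit (FBgn0026753, 3R, 15468980 to 15470126), stood at 109.8, 109.1 and 101.4 FPKM in wild type and at 112.2, 112.2 and 107.8 FPKM in the knockout. Those groups overlapped, through knockout replicate 3. The log2 change of Vha13 was 0.05 (SE 0.043, limma adjusted p = 0.301). Vha44, the C subunit (FBgn0262511, 2R, 12212318 to 12224142), stood at 57.9, 57.4 and 65.0 FPKM in wild type and at 66.8, 69.7 and 67.7 FPKM in the knockout. Wild-type replicate 3 lay just under the lowest knockout library, and the groups did not overlap. The mean rose 1.13-fold, from 60.1 ± 4.21 to 68.1 ± 1.51 FPKM (log2 change 0.18, SE 0.052, limma adjusted p = 0.0114), a call that was lost without wild-type replicate 2 (log2 change 0.15, limma adjusted p = 0.0508). The span of Vha44 shares 548 bases with Hmgs on the opposite strand, and the log2 change of Hmgs was 0.04. The sources used here do not give whether strand was used in counting.

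The central stalk, made of subunits D and F, carries the rotation to the membrane ring, and neither of its expressed genes passed the test. Vha36-1, the D subunit (FBgn0022097, 2R, 11428922 to 11430003), stood at 81.8, 81.7 and 77.0 FPKM in wild type and at 74.6, 80.9 and 73.7 FPKM in the knockout. Knockout replicate 2 lay within the wild-type range and the other two knockout libraries lay below it. The log2 change was -0.07 (SE 0.048, limma adjusted p = 0.223), and without knockout replicate 2 it was -0.11 (limma adjusted p = 0.0449). Vha14-1, the F subunit (FBgn0262512, 2R, 11566931 to 11567585), stood at 79.2, 76.7 and 71.6 FPKM in wild type and at 66.6, 82.5 and 71.2 FPKM in the knockout. The knockout libraries lay on both sides of the wild-type range. Its log2 change was -0.05 (SE 0.071, limma adjusted p = 0.555), -0.14 without knockout replicate 2 (limma adjusted p = 0.0488) and 0.02 without knockout replicate 1, so its direction rested on single libraries.

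VhaSFD, the H subunit (FBgn0027779, 2L, 16723138 to 16727825), rose. In yeast this subunit is needed for activity of the assembled pump and silences ATP hydrolysis by free V1. Its levels were 68.7, 65.6 and 74.4 FPKM in wild type and 83.9, 83.6 and 82.8 FPKM in the knockout. The knockout libraries lay within about 1 FPKM of each other and above all wild-type libraries. The mean rose 1.20-fold, from 69.6 ± 4.50 to 83.4 ± 0.582 FPKM (log2 change 0.26, SE 0.049, limma adjusted p = 0.000781).

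**Figure D2:**
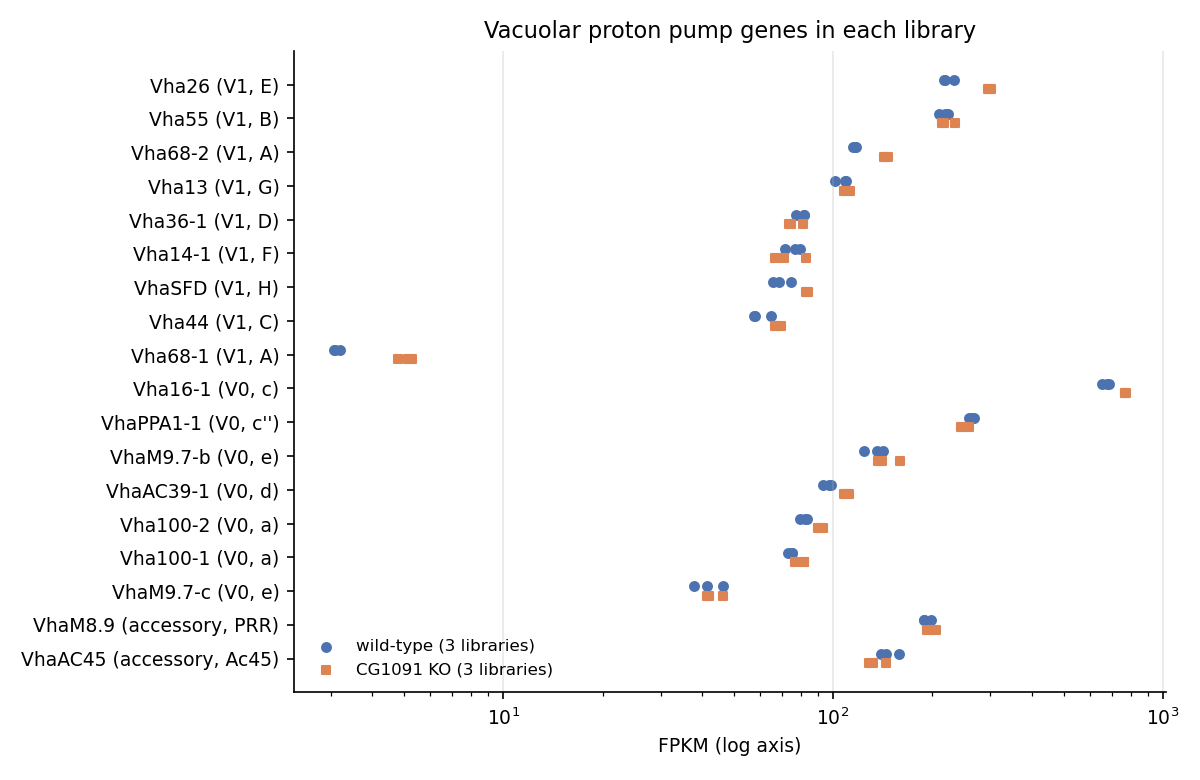
Level of each tested pump gene in FPKM (log axis) in each library, with 3 wild-type libraries as circles and 3 knockout libraries as squares, grouped by sector and ordered by wild-type level. Vha16-1 stands at the top of the scale at 653.1 to 774.4 FPKM and Vha68-1 at the bottom at 3.06 to 5.28 FPKM, and the groups are fully apart for Vha26, Vha68-2, VhaSFD and Vha16-1, among others.

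In V0, the proteolipid ring carries the protons. Vha16-1, the c subunit (FBgn0262736, 2R, 2512747 to 2520633), was the most abundant of all 33 genes and stood above 98.2% of tested genes in wild type. It reached 653.1, 676.4 and 685.8 FPKM in wild-type libraries and 766.9, 774.4 and 767.5 FPKM in knockout libraries. The groups were apart, and the knockout libraries were close together. The mean rose 1.15-fold, from 671.7 ± 16.8 to 769.6 ± 4.15 FPKM (log2 change 0.20, SE 0.039, limma adjusted p = 0.00124), on 37901 to 51191 recovered fragments per library. VhaPPA1-1, the related c″ subunit of the same ring (FBgn0028662, 3R, 10728048 to 10729796), stood at 258.3, 263.8 and 266.9 FPKM in wild type and at 244.9, 258.5 and 247.6 FPKM in the knockout. Knockout replicate 2 reached into the wild-type range and the other two knockout libraries did not. The log2 change was -0.07 (SE 0.037, limma adjusted p = 0.114), and without knockout replicate 2 it was -0.09 (limma adjusted p = 0.0270).

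Subunit a, the fixed membrane part through which protons enter and leave the ring, was carried by a pair of copies at similar levels. Vha100-2 (FBgn0028670, 3R, 14216039 to 14224876) stood at 82.5, 79.4 and 83.4 FPKM in wild type and at 93.1, 91.4 and 89.9 FPKM in the knockout. The groups did not overlap. Its mean rose 1.12-fold, from 81.8 ± 2.08 to 91.5 ± 1.61 FPKM (log2 change 0.16, SE 0.039, limma adjusted p = 0.00434). Vha100-2 shares 2160 bases of its span with koko on the opposite strand, a gene at a mean of 41.2 FPKM whose log2 change was -0.17. Vha100-1 (FBgn0028671, 3R, 24956772 to 24963702), which in flies is known for its role at synapses, stood at 73.2, 74.9 and 75.3 FPKM in wild type and at 81.5, 81.5 and 76.6 FPKM in the knockout. Each knockout library lay above each wild-type library, replicate 3 by the smallest margin. Its log2 change of 0.10 (SE 0.041) did not pass the test (limma adjusted p = 0.0574), and without knockout replicate 3 it was 0.13 (limma adjusted p = 0.0400). Its span shares 11 bases with CG14512, a gene at a mean of 5.85 FPKM.

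VhaAC39-1, the d subunit that couples the ring to the central stalk (FBgn0028665, X, 3774777 to 3777000), stood at 93.1, 97.0 and 98.5 FPKM in wild type and at 108.9, 112.2 and 108.0 FPKM in the knockout. All 3 knockout libraries lay above the wild-type libraries. The mean rose 1.14-fold, from 96.2 ± 2.77 to 109.7 ± 2.20 FPKM (log2 change 0.19, SE 0.039, limma adjusted p = 0.00165). The e subunit, a small hydrophobic membrane protein, had a pair of expressed copies, and neither passed. VhaM9.7-b (FBgn0028663, 3L, 21532946 to 21533798) stood at 124.1, 135.6 and 141.9 FPKM in wild type and at 140.4, 160.1 and 136.8 FPKM in the knockout, with overlapping groups. Its log2 change was 0.12 (SE 0.064) and missed the threshold (limma adjusted p = 0.123). A value of 0.16 for VhaM9.7-b stood in the authors' deposited table (adjusted p = 0.0238), and limma-voom on the recovered fragments gave 0.18 (adjusted p = 0.00394). In limma, its log2 change was 0.05 without knockout replicate 2 (adjusted p = 0.425) and 0.07 without wild-type replicate 1 (adjusted p = 0.401). VhaM9.7-c (FBgn0028664, 3L, 4186018 to 4186816) stood at 37.8, 41.6 and 46.3 FPKM in wild type and at 42.1, 46.4 and 41.3 FPKM in the knockout. Its groups overlapped almost fully, with log2 change 0.05 (SE 0.071, limma adjusted p = 0.563) that was -0.02 without wild-type replicate 1. Its span lies within those of CG18675 and Teh2, both under 1 FPKM.

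The accessory proteins, which bind V0 and take part in its assembly and sorting, did not pass the test. VhaAC45, the homologue of mammalian Ac45 (FBgn0262515, 2R, 5095067 to 5097169), stood at 139.9, 145.0 and 158.6 FPKM in wild type and at 128.5, 145.0 and 131.9 FPKM in the knockout. Knockout replicate 2 lay inside the wild-type range and the other two knockout libraries lay below it. The log2 change was -0.13 (SE 0.057, limma adjusted p = 0.0694), the lowest of the 18. Its limma call depended on single libraries, with an adjusted p of 0.0144 without knockout replicate 2 (log2 change -0.18), 0.0408 without wild-type replicate 1 (-0.17) and 0.263 without wild-type replicate 3 (-0.08). VhaM8.9, the homologue of the mammalian prorenin receptor (FBgn0037671, 3R, 5086363 to 5088315), stood at 189.1, 188.1 and 198.2 FPKM in wild type and at 193.2, 205.3 and 198.8 FPKM in the knockout. The groups overlapped, and its log2 change was 0.05 (SE 0.039, limma adjusted p = 0.255).

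Leaving out knockout replicate 2 left 8 of the 18 genes higher and made 4 lower, namely VhaAC45, VhaPPA1-1, Vha36-1 and Vha14-1. Over all genes, the same setting called 29.2% higher, 32.0% lower and 61.1% in either direction. With that library included, 0 of the 18 were lower. In these 4 genes knockout replicate 2 was the highest of the 3 knockout libraries. Leaving out knockout replicate 1 or knockout replicate 3 gave 0 lower.

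By sector, V1 had 5 of 9 tested genes higher (55.6%) with a median log2 change of 0.18, and V0 had 3 of 7 higher (42.9%) with a median of 0.12. Over all genes tested, 30.1% were called higher and 62.1% in either direction. The order of the V1 and V0 medians turned with length centring (0.16 for V1 and 0.17 for V0) and with a minimum of 5 FPKM (0.116 and 0.121). The calls behind the counts also moved with length centring. In V1, Vha44 lost its call and Vha13 gained one, while in V0 Vha100-2 lost its call and VhaM9.7-b and VhaM9.7-c gained theirs. The accessory pair had 0 of 2 called and a median of -0.04. Per library, the median deviation of the V1 genes from their own wild-type means on the log2 scale was -0.01, -0.01 and 0.03 in wild type and 0.15, 0.21 and 0.17 in the knockout. For V0 the same median was -0.04, 0.01 and 0.03 in wild type and 0.13, 0.16 and 0.04 in the knockout. All knockout medians lay above all wild-type medians in both sectors, in V0 by the smallest margin in knockout replicate 3. The summed level of the V1 genes was 943.4 to 966.0 FPKM in the wild-type libraries and 1065 to 1112 FPKM in the knockout libraries. V0 genes summed to between 1322 and 1398 FPKM in wild type and between 1468 and 1525 FPKM in the knockout. Such sums rest mostly on the abundant genes. In V0, the mean of Vha16-1 rose from 671.7 to 769.6 FPKM, while VhaPPA1-1, next in level, was not called and moved from 263.0 to 250.3 FPKM. In V1, the means rose from 223.0 to 297.7 FPKM for Vha26 and from 116.1 to 144.2 FPKM for Vha68-2. The difference between the sectors' changes was not tested.

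The proportions of some genes whose proteins meet in the same part of the pump are described here without a test, because the pairs were chosen after the values were seen. The ratio of Vha26 to its stalk partner Vha13, in FPKM, was 1.99, 1.99 and 2.30 in wild type and 2.68, 2.65 and 2.74 in the knockout. The ratio of the catalytic Vha68-2 to Vha55 was 0.558, 0.528 and 0.520 in wild type and 0.666, 0.626 and 0.662 in the knockout. In the ring, the ratio of Vha16-1 to VhaPPA1-1 was 2.53, 2.56 and 2.57 in wild type and 3.13, 3.00 and 3.10 in the knockout. In all 3 ratios the knockout libraries lay above the wild-type libraries, but this direction was built into the choice of pairs. Each pair set a gene called higher over a gene that was not called. Exon lengths also differed, with 2926 nt for Vha26 against 943 nt for Vha13, and 3077 nt for Vha16-1 against 1352 nt for VhaPPA1-1. With length centring Vha13 was itself called higher (log2 change 0.16, limma adjusted p = 0.00562).

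Order of level in wild-type cells did not follow the sector. VhaPPA1-1 came next after Vha16-1, then Vha26 and Vha55, whose ranges over the wild-type libraries overlapped. VhaM8.9 followed, then VhaAC45 and VhaM9.7-b, which overlapped, and then Vha68-2, Vha13 and VhaAC39-1, each apart from the next. Vha100-2, Vha36-1, Vha14-1, Vha100-1 and VhaSFD formed a run in which each range overlapped that of its neighbour. Vha44, VhaM9.7-c and Vha68-1 closed the order, each apart from the next. The genes were measured with little spread. The median coefficient of variation over the 18 was 3.27% in wild type and 2.96% in the knockout, against 4.80% in both groups over all genes. The 18 were also more abundant, with a median wild-type level of 101.5 FPKM against 21.6 FPKM over all genes tested. Spread was not compared at matched levels.

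The other 15 pump genes, 4 of V1 and 11 of V0, were at or near 0 in every library. All are minor copies of subunits that another gene supplied. Listed at 0 in all 6 libraries were 7 V0 genes, namely Vha100-3, Vha100-5, Vha16-2, Vha16-3, VhaPPA1-2, VhaM9.7-a and VhaM9.7-d. The remaining 8 (Vha68-3, Vha36-2, Vha36-3, Vha14-2, Vha100-4, Vha16-4, Vha16-5 and VhaAC39-2) were above 0 in at least 1 library. Of these 8, Vha68-3, Vha36-3, Vha100-4 and VhaAC39-2 were above 0 in all 6 libraries, and none of the 8 had more than 9 recovered fragments in a library. The highest value among them was 0.281 FPKM, for VhaAC39-2 in knockout replicate 3. The authors' deposited table listed 9 of the 15, with a highest mean normalised count of 4.67, and called 0 of them. Of 2523 genes listed at 0 in all libraries, 0 had a mean normalised count over 100 in the authors' deposited table.

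**Figure D3:**
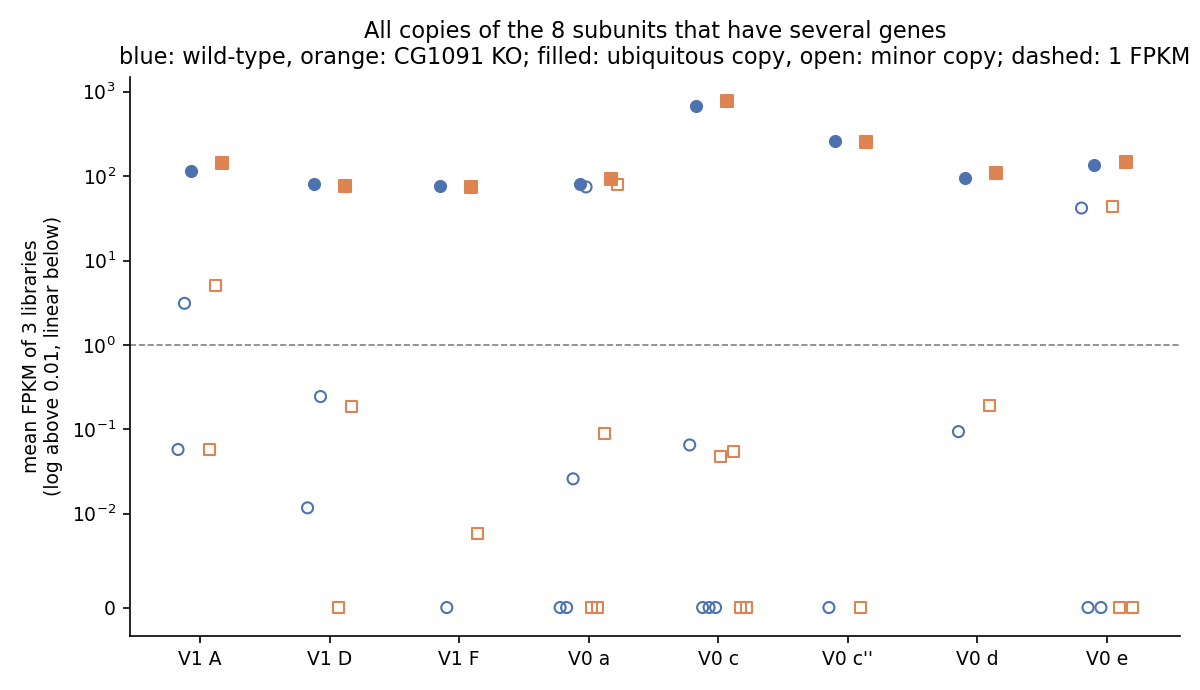
Mean level in FPKM over 3 libraries (log axis above 0.01, linear below) of every gene copy of the 8 subunits with several genes, with wild type as circles, knockout as squares, ubiquitous copies filled and minor copies open. Only the A, a and e subunits have a minor copy above the dashed line at 1 FPKM, and the ubiquitous copy is the highest for every subunit in both groups.

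Some silent copies lie next to abundant ones. On chromosome 2L, Vha68-3 starts 170 bases after the end of Vha68-2 on the same strand, with no listed gene between them, and the means over the 6 libraries were 0.0574 and 130.2 FPKM. Vha68-1 lies 19463 bases beyond Vha68-3, on the opposite strand. On 3R, Vha100-4 and Vha100-2 are 513 bases apart on the same strand, at 0.0582 and 86.6 FPKM. VhaPPA1-2 and VhaPPA1-1 are 2048 bases apart on 3R, with 1 listed gene between them, at 0 and 256.7 FPKM. On 3L, Vha16-3 and Vha16-2 are 985 bases apart and both were listed at 0.

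Each of the 3 expressed minor copies was set against all copies of its subunit as a share of their summed FPKM. Vha68-1 supplied 2.57%, 2.58% and 2.67% of the A subunit level in wild type and 3.26%, 3.39% and 3.54% in the knockout. The groups did not overlap, and the mean share was 2.61 ± 0.0519% and 3.40 ± 0.141% (SD, n = 3 per group), a gap of 0.791 percentage points (two-sided exact permutation p = 0.1, adjusted over the 3 shares 0.15). VhaM9.7-c supplied 23.3%, 23.5% and 24.6% of the e subunit level in wild type and 23.1%, 22.5% and 23.2% in the knockout. These groups also did not overlap, with a difference of -0.882 percentage points (exact permutation p = 0.1, adjusted 0.15), and of -0.489 without wild-type replicate 3. Vha100-1 supplied 47.0%, 48.5% and 47.4% of the a subunit level in wild type and 46.6%, 47.1% and 46.0% in the knockout. Knockout replicate 2 lay above the lowest wild-type library, and the difference was -1.08 percentage points (exact permutation p = 0.2, adjusted 0.2), and -0.643 without wild-type replicate 2. With 3 libraries against 3, the smallest p that this test can give is 0.1, so no share could pass.

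**Figure D4:**
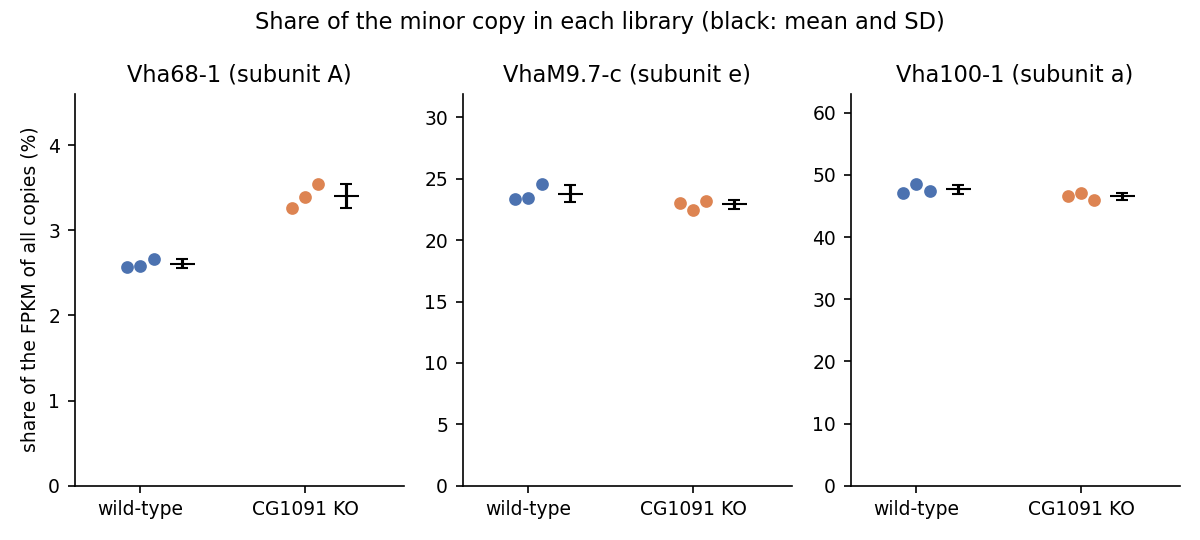
Share (%) of the summed FPKM of all copies of a subunit that came from its expressed minor copy, with 1 point per library and the mean and SD in black, for 3 wild-type and 3 knockout libraries. The Vha68-1 share spans 2.57% to 2.67% in wild type and, in the knockout, 3.26% to 3.54%. Knockout minus wild type, the mean shares differ by 0.791 percentage points for Vha68-1, -0.882 for VhaM9.7-c and -1.08 for Vha100-1.

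The size of the change went with gene length. Exon lengths were taken from Ensembl's BDGP6 annotation by gene identifier, or else by symbol, and were found for all 33 genes and for 97.5% of the genes tested. Over all tested genes, the median log2 change ran from -0.20 in the shortest of 10 length groups (median exon length 681 nt) to 0.11 in the longest (median 7652 nt). Over the 18 pump genes, Pearson's r between log2 exon length and log2 change was 0.55, against 0.15 over the 7080 genes with a length. Spearman's rank correlation was 0.54 over the 18 pump genes and 0.24 over the 7080 genes. Genes are not independent replicates, and all points share the same 6 libraries, so these values are a description. When the median change of each gene's length group was removed, 10 of the 18 were higher and 0 lower in limma, where 30.6% of all genes were higher, 30.5% lower and 61.1% either. Vha44 (log2 change 0.11, limma adjusted p = 0.0809) and Vha100-2 (0.09, limma adjusted p = 0.0526) lost their calls. The short genes Vha13 (0.16, limma adjusted p = 0.00562), VhaM8.9 (0.12, limma adjusted p = 0.00878), VhaM9.7-b (0.21, limma adjusted p = 0.00981) and VhaM9.7-c (0.23, limma adjusted p = 0.0135) gained them. Vha26 (0.39), Vha68-2 (0.29) and VhaSFD (0.24) moved little.

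**Figure D5:**
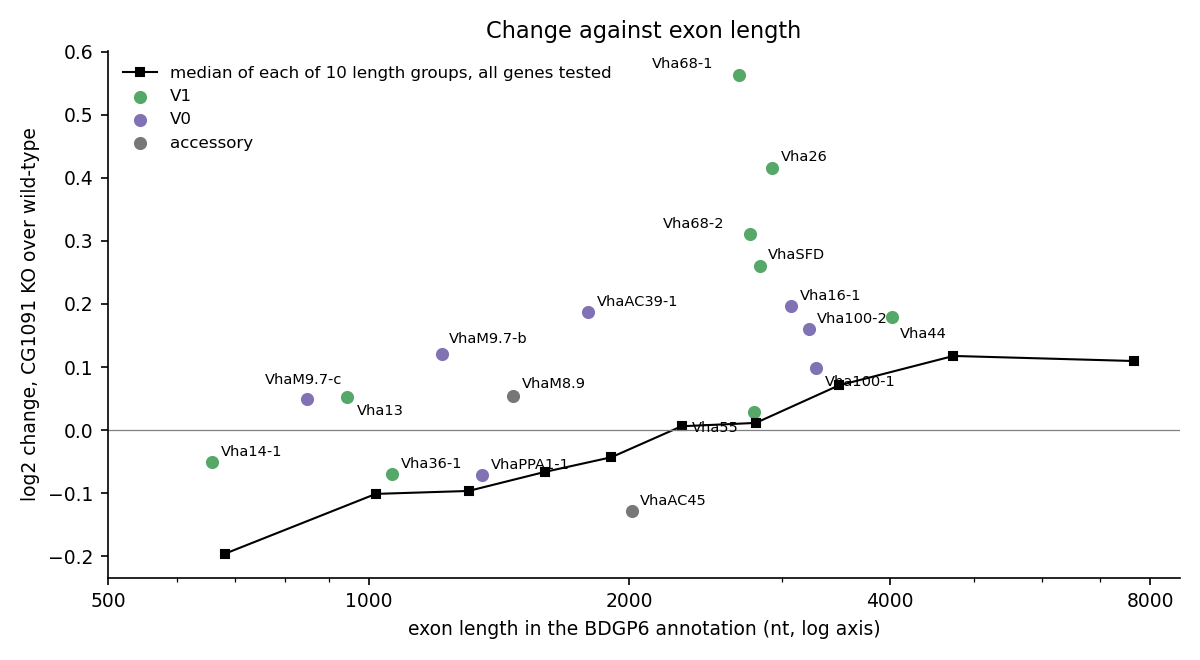
Log2 change of the 18 tested pump genes, knockout over wild type, against exon length in nucleotides (log axis), coloured by sector, with the median change of 10 length groups of all tested genes as a black line. The line runs from -0.20 at 681 nt to 0.11 at 7652 nt. Vha26, Vha68-1 and Vha68-2 stand furthest above it, and VhaAC45 lies below it. VhaSFD of V1 and VhaAC39-1, VhaM9.7-b and VhaM9.7-c of V0 stand above it by similar amounts.

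Genes that work with the pump are described beside the shares over all genes, of which 30.1% were called higher, 32.1% lower and 62.1% in either direction. Of 3 genes of its assembly and control, Mitf, the fly homologue of the TFEB family that activates V-ATPase genes, fell from 36.9 ± 2.21 to 31.3 ± 2.43 FPKM (log2 change -0.23, limma adjusted p = 0.00851). The other two, Rbcn-3A and Rbcn-3B, encode the rabconnectin assembly factor and did not pass the test, with log2 changes of -0.05 and 0.16. Of 6 genes of the Rag GTPases and Ragulator, which bind the pump on the lysosome, 1 was higher, 4 were lower and 1 was not called, with a median log2 change of -0.21. RagC fell from 32.3 ± 0.766 to 27.8 ± 0.717 FPKM (log2 change -0.21, limma adjusted p = 0.00219), while RagA had a log2 change of 0.17 (limma adjusted p = 0.0327). The Ragulator genes CG14977 and CG14184 fell by 0.35 and 0.22 on the log2 scale. With the length trend removed, the median of these 6 genes was -0.09.

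Lysosomal enzymes and transport proteins, which work in the compartment the pump acidifies, included 27 listed genes, of which 17 were tested. Of these, 3 were higher, 11 were lower and 3 were not called, where 30.1% of all genes were higher and 32.1% lower, with a median log2 change of -0.31. The sterol-binding protein gene Npc2a fell by 1.12 on the log2 scale. CG13822, named GILT3 in newer tables, fell by 1.17, from 8.83 to 3.39 FPKM. Cp1, which encodes a cathepsin L protease, fell from 837.4 ± 9.58 to 600.6 ± 18.1 FPKM (log2 change -0.48, limma adjusted p = 2.19e-06). Of 3 genes of the ClC chloride channel family, some of whose products balance the charge of pumped protons, ClC-a fell from 12.1 ± 0.578 to 8.40 ± 0.409 FPKM and the other two were not called.

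The mitochondrial ATP synthase is a related rotary machine that runs in the opposite sense and makes ATP. Of its 14 genes, 0 were higher, 13 were lower and 1 was not called, where 32.1% of all genes were lower. Their median log2 change was -0.45, against 0.11 for the 18 pump genes and -0.01 for all genes. The 3 with the smallest p were l(1)G0230, which fell from 193.5 ± 5.31 to 117.9 ± 13.1 FPKM, ATPsyn-b, which fell from 256.4 ± 13.5 to 186.0 ± 5.87 FPKM, and CG3321, which fell from 295.1 ± 4.49 to 211.5 ± 15.1 FPKM. ATP synthase genes are short, with a median exon length of 934 nt against 2345 nt for the tested pump genes. After removal of the length trend, the medians were -0.34 for ATP synthase, -0.28 for the lysosomal genes and 0.14 for the pump genes.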

How the data were processed

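The authors deposited a gene table per library with FPKM values and confidence bounds, in Cufflinks format per the file headers. A further table from the authors compares the groups, with mean normalised counts (a signal), a fold ratio, a log2 ratio and p-values. Its columns carry DESeq names per the file headers of the deposited table. Its log2 values are wild type over knockout and were turned. Without giving roles, the submitters' processing notes list TopHat 1.4.1, BWA 0.6.1, HTSeq 0.6.1p1, Cufflinks 1.3.0 and DESeq 1.10.1. The labels' protocols name a directional library kit. No genome build is given in the sources used here. The files' starts were raised by 1, because on 2L this made 43.5% of 2596 starts equal to those of the BDGP6 annotation, against 0.924% without it. None matched on 3R, so BDGP6 is not the files' build and only its gene names and exon lengths were used.

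Genes averaging at least 1 FPKM entered limma 3.58.1 (R 4.3.3) as log2(FPKM + 1), knockout against wild type (eBayes with trend and robust settings, Benjamini-Hochberg adjustment over 7259 genes, threshold 0.05), after trial on simulated data. The log2 scale understates changes of low genes. Fragment numbers were recovered by dividing 2 times the FPKM by the gap to its upper bound and squaring. For genes with several transcripts they are effective numbers only. Of the values checked under 30, 92.6% to 93.1% per library were within 0.02 of a whole number. Named genes were every Vha gene, with values for those tested, and up to 3 called genes of each other list by smallest p. RagA, Rbcn-3A and Rbcn-3B were named after their values were seen. The genes and lists were chosen with earlier results of these data known. Copy shares were compared with a two-sided exact permutation test. Alternatives were pseudocounts of 0.1 and 5, no filter, a minimum mean of 5 FPKM, scaling to the median, quantile normalization, length centring, plain eBayes, the replicate block, leaving out each library, limma-voom and the deposited table. Figures used matplotlib 3.10.9 in Python 3.11.15.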

Additional observations from a re-analysis of the deposited data

How the results depend on the processing

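The count of higher pump genes was 7 to 9 when single libraries were left out, 7 with a minimum of 5 FPKM, 8 with no filter (26 genes tested) and 8 to 10 under the other planned settings. Lower genes numbered 0, except for 1 with median scaling and a range of 0 to 4 when single libraries were left out. Over all genes, these settings called between 4004 (without knockout replicate 3) and 4541 (no filter). Of the genes called, the part that was higher ran from 46.6% (median scaling) to 51.6% (limma-voom). It was 46.7% of 4012 with a minimum of 5 FPKM and 50.8% with no filter. The V1 median log2 change was 0.12 with a minimum of 5 FPKM, which drops Vha68-1, and 0.15 to 0.24 when single libraries were left out. The V0 median was 0.17 with length centring. Signs turned with length centring for Vha36-1 (0.034), Vha14-1 (0.13) and VhaPPA1-1 (0.013), and with limma-voom for Vha14-1 (0.013). When single libraries were left out, the log2 change ranged from -0.14 to 0.016 for Vha14-1, -0.020 to 0.12 for VhaM9.7-c and -0.011 to 0.056 for Vha55. Of the other single-gene values under these settings, 281 kept direction and call, 13 gained a call and 3 lost one. Copy share differences kept their sign under each setting run, with ranges when single libraries were left out of 0.718 to 0.859 percentage points for Vha68-1, -1.11 to -0.489 for VhaM9.7-c and -1.40 to -0.643 for Vha100-1. The log2 change of Vha68-1 ran from 0.31 (pseudocount 5) to 0.71 (limma-voom).

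The replicate numbers are shared between the groups, but deviations of same-numbered libraries correlated at -0.0495, 0.00286 and -0.032, so they were not taken as pairs. With the replicate block 8 genes were called, all higher, the V1 and V0 medians were 0.18 and 0.12, and a paired sign-flip test of the copy shares can give no p below 0.25. Chosen after seeing the data was the count without the genes whose span overlaps a tested gene, where 6 of 15 were higher and 0 lower. Over all genes tested, 30.1% were called higher and 32.1% lower. Depth limits the low copies: none of the 15 silent genes exceeded 9 fragments in a library, and Vha68-1 rests on at most 325 fragments per library.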
